A study of Mus musculus with 8 samples.

Results

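Glioma macrophages rich in Nr4a2 transcripts were compared with glioma macrophages in which no Nr4a2 transcript was counted. The cells came from a droplet single-cell RNA library of CD45+ cells, that is leukocytes and microglia, which the submitters sorted magnetically from the tumours of glioma-bearing mice. The cells were selected on measured values. A barcode of the glioma library was taken as a macrophage when it held 8000 to 16000 unique molecular identifiers (UMIs, which count RNA molecules), at most 10% mitochondrial UMIs, and at least 4 UMIs in all of Csf1r, Fcgr1, Adgre1 and Cd14. It also had to hold no UMI of Cd3d, Cd3e or Cd3g and fewer than 3 UMIs of the cell cycle genes Top2a, Mki67 and Birc5. This rule found 2747 macrophages. Of these, 564 held at least 3 Nr4a2 UMIs and are called Nr4a2-high below, and 1339 held none and are called Nr4a2-zero. The 1903 cells of both sides stood among 11049 barcodes of the glioma library, and 24729 of the whole series, with at least 1000 UMIs and at most 10% mitochondrial UMIs.

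The study listed 4 samples of CD45+ cells from normal mouse brain and 4 from glioma, each group in 1 count matrix without a record of which barcode came from which mouse. The labels give no mouse strain, age, genotype, glioma model or treatment. Cells of a pooled library are not replicates, so no test was possible between Nr4a2-high and Nr4a2-zero cells, and no spread between mice can be given. The UMIs of each gene were summed over the cells of each side and expressed as CPM, the usual scale on which the UMIs of each side, here without Nr4a2, have the same total. Ratios are log2 of CPM in Nr4a2-high over Nr4a2-zero cells. Ranges in parentheses are exact 95% intervals that cover counting error only.

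Nr4a2, also called Nurr1, belongs with Nr4a1 (Nur77) and Nr4a3 (Nor1) to the NR4A family of orphan nuclear receptors. These transcription factors have no known conventional hormone ligand in the cell, and their activity is set mostly by how much of them is made. They are immediate early genes, transcribed within minutes to hours of signals such as cyclic AMP, calcium, Toll-like receptor ligands and growth factors. In macrophages and microglia they are known for restraining NF-kB target genes, and Nr4a1 is required for the patrolling Ly6C-low monocyte. The study's title concerns a role of Nr4a2 in immunosuppression in glioma.

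The number of macrophages fell off gradually with the number of Nr4a2 UMIs. No UMI was counted in 48.7% of the 2747 cells, and 550 cells held 1 UMI. Just outside the threshold lay 294 cells with 2 UMIs, and just inside it 196 cells with 3 UMIs. Nr4a2-high cells had a median of 4 UMIs and a maximum of 20, and Nr4a2 made up 422 CPM of all their UMIs. The free RNA of the library, taken from barcodes of 10 to 100 UMIs, held Nr4a2 at 75.1 CPM. In the same depth window 39.9% of 276 T cells held an Nr4a2 UMI, at a median depth of 10443 UMIs, against 51.3% of the macrophages at 11464 UMIs. T cells can themselves transcribe Nr4a2, so this share is no clean measure of background.

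**Figure D1:**
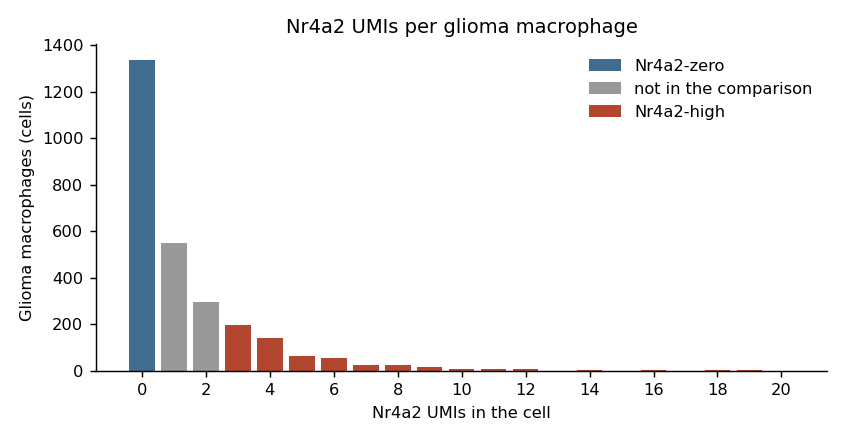
Number of glioma macrophages (vertical axis, cells) with each number of Nr4a2 UMIs (horizontal axis). Blue marks the 1339 Nr4a2-zero cells, grey the 844 cells with 1 or 2 UMIs that entered neither side, and red the 564 Nr4a2-high cells, whose tail reaches 20 UMIs.

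Depth was alike but not equal on both sides. Nr4a2-high cells had a median of 11852 UMIs (quartiles 10004 to 13736) and 2781 genes, and Nr4a2-zero cells 11237 UMIs (9342 to 13651) and 2724 genes. The median mitochondrial share was 2.91% and 3.29% in turn. Csf1r, the receptor for the macrophage growth factor CSF1, was seen in 94.9% of Nr4a2-high and 93.5% of Nr4a2-zero cells, and Fcgr1 in 85.8% and 85.0%, but these are genes of the cell rule, which largely fixed their detection. Macrophage markers outside the rule were also present on both sides. The complement gene C1qa was seen in 79.6% and 77.4%, and the lipid carrier gene Apoe in 98.1% and 97.8%. Of 10 pan-macrophage markers only Cd14, a co-receptor for bacterial lipopolysaccharide and likewise a gene of the rule, differed by 1.5-fold or more, with 2418 against 1324 CPM (0.87; 0.84 to 0.90). Markers of other cells were low: 10 T cell markers summed to 8.47 and 7.58 CPM, with Cd3d, Cd3e and Cd3g at 0 by the rule. The tumour or glial list summed to 4.01 and 4.21 CPM, with Olig2, Sox2, Sox10, Pdgfra and Aqp4 at 0 on both sides. Neutrophil markers summed to 704 and 802 CPM, microglia markers to 55.3 and 93.5, dendritic cell markers to 151 and 120, and B cell markers to 8.62 and 17.9. Summed CPM of the other lists in Nr4a2-high and Nr4a2-zero cells were 4.76 and 5.77 (NK cell), 317 and 326 (plasmacytoid dendritic cell), 686 and 733 (border-associated macrophage), 58.4 and 61.6 (endothelium). The mast cell, fibroblast and erythroid lists each lay below 4 CPM on both sides. Doublets were not removed by a caller. Of the members, 10 Nr4a2-high (1.77%) and 7 Nr4a2-zero (0.523%) barcodes also held at least 300 UMIs in the control library.

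The promoters of the 2 family members at the centre of the comparison and of Areg, which had the largest ratio among the 15 leading higher genes, are shown because cyclic AMP acts on such genes through the element TGACGTCA or its core TGACG, which the factor CREB binds. Each is the 250 bases before a RefSeq transcription start (GRCm38.p6), 5′ to 3′ on the gene's strand. Capitals mark TGACG or its reverse complement CGTCA, and their overlap in the full element TGACGTCA.
Nr4a2 (chr2:57124004-57124253, minus strand): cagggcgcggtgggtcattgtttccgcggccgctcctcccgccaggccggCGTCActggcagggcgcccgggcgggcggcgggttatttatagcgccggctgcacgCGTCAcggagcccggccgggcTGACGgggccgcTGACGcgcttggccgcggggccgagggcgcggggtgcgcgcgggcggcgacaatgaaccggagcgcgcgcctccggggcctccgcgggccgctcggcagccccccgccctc
Nr4a3 (chr4:48045055-48045304, plus strand): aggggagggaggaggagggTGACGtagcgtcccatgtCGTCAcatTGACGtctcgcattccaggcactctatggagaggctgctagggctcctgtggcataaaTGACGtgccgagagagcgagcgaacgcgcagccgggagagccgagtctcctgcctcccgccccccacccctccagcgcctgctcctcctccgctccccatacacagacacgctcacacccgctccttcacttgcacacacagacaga
Areg (chr5:91139349-91139598, plus strand): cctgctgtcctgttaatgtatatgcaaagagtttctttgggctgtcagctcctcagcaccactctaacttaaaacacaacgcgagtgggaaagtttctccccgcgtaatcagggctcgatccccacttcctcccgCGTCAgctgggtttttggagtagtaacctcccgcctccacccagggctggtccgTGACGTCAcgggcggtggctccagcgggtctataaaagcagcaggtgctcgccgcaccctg
The Nr4a2 and the Nr4a3 window held 4 matches of TGACG each, counting both strands, and no TGACGTCA. The Areg window held 3 matches, 2 of them being the overlapping strands of its TGACGTCA. The element AAAGGTCA, which NR4A proteins bind as monomers, was in none of these windows. Among the 15 leading genes on the higher side, ranked by interval bound and named below, 11 had a promoter in the table. Of these 11, 4 held TGACG (Areg, Nr4a3, Rgcc and Vegfa) and only Areg held the full TGACGTCA. Only the promoter of Olr1 held AAAGGTCA, in capitals here on its minus strand.
Olr1 (chr6:129507166-129507415, minus strand): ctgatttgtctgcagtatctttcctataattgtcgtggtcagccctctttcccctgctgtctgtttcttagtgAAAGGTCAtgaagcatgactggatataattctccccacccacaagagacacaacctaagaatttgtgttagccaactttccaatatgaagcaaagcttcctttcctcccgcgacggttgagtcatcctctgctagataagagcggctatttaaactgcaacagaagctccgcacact
Over all genes at least 1.5-fold higher in Nr4a2-high cells, 35.7% of 112 genes with a promoter held TGACG, against 32.8% of the 6717 compared genes, 17.6% of 250 lower genes and 19.8% of all 27025 genes in the table. The full TGACGTCA was in 3.57% of the higher genes, 3.29% of the compared and 1.77% of all genes. AAAGGTCA was in 0.893% of the higher genes, 0.8% of the lower, 1.13% of the compared and 1.55% of all genes. The higher genes thus held each motif at a share near that of the compared genes. A match describes letters in this window and not binding. TGACG was added to the search after results had been seen.

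Of the 8431 genes with at least 100 UMIs over both sides, 153 were at least 1.5-fold higher in Nr4a2-high cells (1.81%) and 324 at least 1.5-fold lower (3.84%). At 2-fold these were 8 higher and 57 lower. The median log2 ratio of all compared genes was -0.04, and the 5th and 95th percentiles were -0.53 and 0.40, so most of the transcriptome lay close together. Of all compared genes 41.9% lay above 0 and 58.1% below, which is the background for the counts above or below 0 given for gene lists. The shares of 1.81% and 3.84% are likewise the background for the counts of list genes past 1.5-fold. The balance depended on the minimum: with at least 500 UMIs per gene, 72 genes were higher and 60 lower, so that 54.5% rather than 32.1% of the genes past the fold were higher. With the median ratio set to 0 this share was 41%.

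The 15 leading genes on the higher side, ranked by the interval bound nearest to 0, were Nr4a3, Areg, Adora2a, Vegfa, Olr1, Inhba, Bend4, Gpd2, Rgcc, Nrg1, Crem, Atp2b4, Cdkn1a, Il1rn and Thbs1. On the lower side they were BC100530, Ngp, Stfa1, Stfa2, Lag3, Crybb1, Stfa2l1, Pmp22, Gdf15, Blnk, Gbp2b, Cx3cr1, Sparc, Ccl8 and Spic. In none of the higher genes did 1 cell hold over 20% of the UMIs of the Nr4a2-high side, although few cells held most of Areg. In 5 of the lower genes 1 cell held over 20% of the UMIs of the Nr4a2-zero side.

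**Figure D2:**
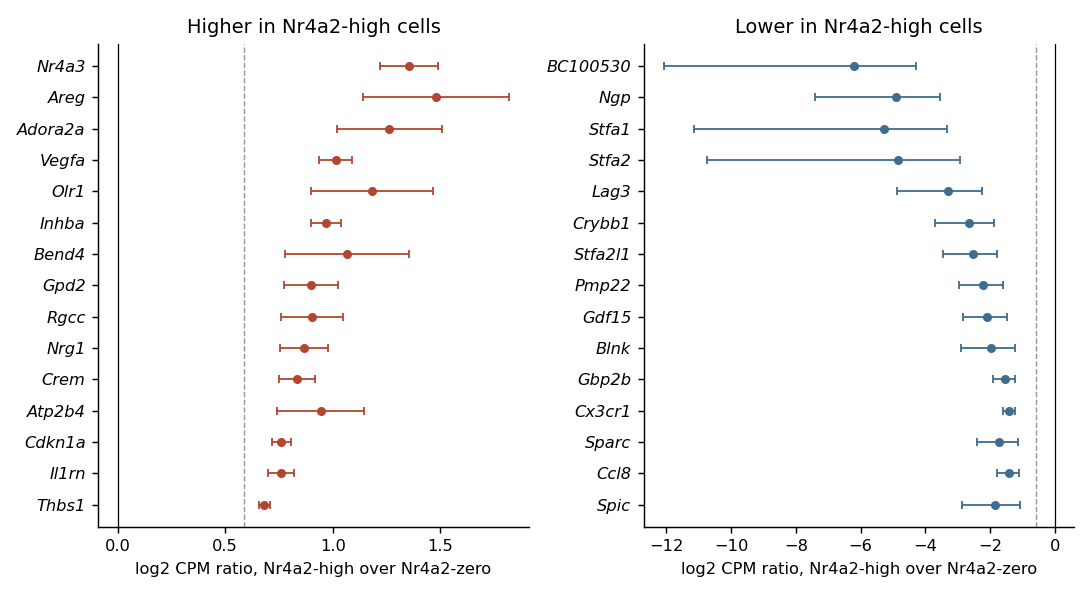
Log2 CPM ratio (horizontal axis) of the 15 leading genes in each direction, with exact 95% intervals of counting error. Dashed lines mark 1.5-fold. Ratios of the higher genes lie between 0.68 (Thbs1) and 1.48 (Areg), and the widest intervals on the lower side belong to BC100530, Stfa1 and Stfa2, which have 1 UMI each in Nr4a2-high cells.

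The sister gene Nr4a3 (chr4:48045153-48086447, plus strand, GRCm38 as for the other positions) led the higher genes. It stood at 141 CPM (133 to 151) in Nr4a2-high and 55.3 CPM (51.6 to 59.1) in Nr4a2-zero cells, a log2 ratio of 1.36 (1.22 to 1.49). A UMI of Nr4a3 was seen in 60.5% of Nr4a2-high cells (56.3 to 64.5%) and 32.2% of Nr4a2-zero cells (29.7 to 34.8%). Nr4a1 differed less, with 152 CPM (143 to 162) against 112 CPM (106 to 117), a ratio of 0.45 (0.34 to 0.56) that does not reach 1.5-fold. Nr4a1 and Nr4a3 were both detected in 37.8% of Nr4a2-high cells (33.8 to 41.9%) and 15.3% of Nr4a2-zero cells (13.4 to 17.4%). Nr4a1 without Nr4a3 was detected in 22.3% and 32.3%. Neither was detected in 17.2% and 35.6%. As background, 42.8% of the T cells held an Nr4a3 UMI and 30.8% an Nr4a1 UMI, both in a cell type that can transcribe them.

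Genes known to be induced by cyclic AMP were higher in Nr4a2-high cells. Of 13 compared genes on this list, 7 were at least 1.5-fold higher and 1 lower, against 1.81% and 3.84% of all compared genes. The median was 0.60 (0.39 to 0.65 over the alternatives). The list, like the others, was chosen with earlier results of these data known. Crem, whose ICER form is a repressor in the cyclic AMP pathway, had 296 against 166 CPM (0.83; 0.75 to 0.92). Fosl2, an AP-1 subunit, had 256 against 154 CPM (0.74; 0.65 to 0.83). Nfil3, a bZIP repressor, had 246 against 160 CPM, the phosphodiesterase gene Pde4d 14.1 against 8.81 CPM, and Ptgs2, which encodes the prostaglandin synthase COX-2, 348 against 229 CPM. Ptger2, a prostaglandin E2 receptor, was the lower member, at 3.72 against 6.03 CPM, and its relative Ptger4 stood at 14.0 and 14.7 CPM. Nfil3, Pde4d, Ptgs2 and Ptger2 passed the fold but fell outside the rule for named genes and were named after their values had been seen. Areg, which encodes the EGF receptor ligand amphiregulin, had 24.2 against 8.68 CPM (1.48; 1.14 to 1.82), but only 5.32% and 2.99% of cells held it and the 10 richest cells held 76.1% and 71.6% of its UMIs. In cells of 10000 to 14000 UMIs its ratio was 0.26. Il10, the remaining higher member, had a ratio of 0.80, and of -0.74 in cells of 10000 to 14000 UMIs.

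Adora2a, an adenosine receptor that signals through cyclic AMP (chr10:75316877-75334784, plus strand), had 42.8 CPM (38.0 to 48.0) in Nr4a2-high and 17.8 CPM (15.8 to 20.1) in Nr4a2-zero cells, a ratio of 1.26 (1.02 to 1.51). It was seen in 31.4% and 15.3% of cells. Adora2b, its low-affinity relative, chosen after its value was seen, was detected in 50.4% and 33.8%, against 3.62% of T cells. Nt5e, the ectoenzyme CD73 that makes adenosine, had 11.9 against 6.81 CPM (0.81; 0.37 to 1.24). Entpd1, the enzyme CD39 upstream of it, stood at 126 CPM on both sides.

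Of the lists with at least 9 compared members, growth factor and activin genes had the next highest median after the cyclic AMP list. Of 13 compared members 7, Areg among them, were at least 1.5-fold higher and 1 lower, against 1.81% and 3.84% of all compared genes. The median was 0.59 (0.29 to 0.68 over the alternatives). Vegfa, the vascular endothelial growth factor (chr17:46016993-46032369, minus strand), had 380 CPM (366 to 395) against 188 CPM (182 to 195) and was seen in 79.3% and 56.2% of cells, with 7.97% of T cells as background. Inhba, the activin A subunit (chr13:16011851-16031621, plus strand), had 440 against 225 CPM (0.97; 0.90 to 1.04). Nrg1, a ligand of ERBB receptors, had 170 against 93.5 CPM (0.87; 0.75 to 0.98), and 1.09% of T cells held it. Thbs1, the matrix protein thrombospondin, was the most abundant of them at 3010 against 1877 CPM (0.68; 0.66 to 0.71). Fn1 (fibronectin, 0.59) and Plaur (the urokinase receptor, 0.66) also passed the fold. Pdgfb went the other way, with 10.4 against 20.6 CPM (-0.98; -1.38 to -0.61), and Pdgfa, also a platelet-derived growth factor, stood at 8.92 and 13.2 CPM. All of Vegfa, Inhba and Nrg1 were detected in 33.2% of Nr4a2-high cells (29.3 to 37.2%) and 13.8% of Nr4a2-zero cells (12.01 to 15.8%), and none of them in 11.5% and 26.4%.

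The remaining leading genes had varied roles. Olr1, the oxidised LDL receptor LOX-1, had 30.9 against 13.6 CPM (1.18; 0.90 to 1.47). Gpd2, the mitochondrial glycerol-3-phosphate dehydrogenase, had 140 against 74.98 CPM (0.90; 0.77 to 1.03). Cdkn1a, the cell cycle inhibitor p21, had 1051 against 621 CPM and was seen in 98.4% and 87.1% of cells. Atp2b4, a plasma membrane calcium pump, had 54.7 against 28.5 CPM, and Rgcc, a regulator of cell cycle, 105 against 56.1 CPM. Bend4 had 28.5 against 13.6 CPM. Vdr, the vitamin D receptor, was the member of the other nuclear receptors at least 1.5-fold higher (169 against 104 CPM, 0.70), while Nr1h3, the oxysterol receptor LXRα, was lower (15.3 against 25.3 CPM, -0.72; -1.06 to -0.41). The other 10 compared nuclear receptors lay within 1.5-fold.

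Inflammatory genes went both ways. Of 12 compared cytokine genes 4 were at least 1.5-fold higher and 2 lower, against 1.81% and 3.84% of all compared genes. Il1b, the interleukin 1β precursor, had 4065 against 2546 CPM (0.68; 0.65 to 0.70) and its natural antagonist Il1rn 595 against 352 CPM (0.76; 0.70 to 0.82). Osm, which encodes oncostatin M, had 307 against 195 CPM (0.66; 0.58 to 0.74). Tnf was lower, at 25.6 against 38.9 CPM (-0.60; -0.86 to -0.36), as was Il18 at 13.7 against 23.4 CPM (-0.77; -1.12 to -0.44). Of 18 NF-kB feedback genes, Cd83 (0.66) and the NF-kB subunit Rel (0.61) were higher, and Icam1 (-0.72) and Tnip1 (-0.61) lower. The inhibitor Nfkbia stood at 354 and 468 CPM and Tnfaip3 at 71.9 and 76.2 CPM, both within 1.5-fold.

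Among 19 chemokines, 3 were at least 1.5-fold lower and 1 higher, against 3.84% and 1.81% of all compared genes. The lower ones were Ccl8 (13.5 against 36.6 CPM, -1.43; -1.77 to -1.12), Ccl12 (27.6 against 60.8 CPM, -1.13) and Ccl4 (135 against 229 CPM, -0.76). With each cell's UMIs of a gene capped at 5, Ccl4 was at -0.12. Ccl22, the higher chemokine, had 7.73 against 4.41 CPM, and 1 cell held 53.8% of its Nr4a2-high UMIs. Ccr7 and Plet1, which are dendritic cell markers, had ratios of 0.90 and 0.64, and 1 cell held 39.4% of the Ccr7 UMIs on the Nr4a2-high side. Cells with at least 3 UMIs of Plet1, Ccr7, Ccl17 and Ccl22 made up 4.43% of Nr4a2-high and 5.08% of Nr4a2-zero cells, and without them the ratio of Ccr7 was -0.40.

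Genes of immunosuppression had a median near 0 as a group. Of 14 compared mediators 3 were at least 1.5-fold higher, Nt5e, Il10 and Il1rn, and none was lower, with a median of 0.02. Of all compared genes 1.81% were higher and 3.84% lower by this mark. Arginase 1 (Arg1) had 529 and 501 CPM, Tgfb1 290 and 312 CPM and Cd274, which encodes PD-L1, 205 and 201 CPM. Il10 had only 8.92 CPM (6.80 to 11.5) against 5.12 CPM (4.05 to 6.38), 1 cell held 31.7% of its Nr4a2-high UMIs, and in cells of 10000 to 14000 UMIs its ratio was -0.74.

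Antigen presentation was nearly level. None of 10 MHC class II genes and none of 18 MHC class I and cross-presentation genes differed by 1.5-fold. H2-Ab1 had 6775 and 6335 CPM, the invariant chain Cd74 had 11359 and 11287 CPM, and H2-D1 2085 and 2065 CPM. The class II transactivator Ciita stood at 54.2 and 74.1 CPM. None of 19 ribosomal, 17 oxidative phosphorylation or 11 proliferation genes passed the fold, with medians of 0.00, -0.01 and -0.12.

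Heat shock and immediate early genes were measured because cell dissociation is known to induce both, and because Nr4a2 is itself an immediate early gene. All 12 heat shock genes had ratios above 0, against 41.9% of all compared genes, with a median of 0.40, and 1, the co-chaperone gene Dnaja1, passed 1.5-fold at 1040 against 692 CPM (0.59; 0.54 to 0.63). Hsp90aa1 had 2313 against 1663 CPM. The strongly inducible Hspa1a and Hspa1b had 3479 against 3161 and 2157 against 2020 CPM, but these sums cover classes that differed. With 0, 3, 4 and 5 or more Nr4a2 UMIs, Hspa1a had 3161, 2444, 2997 and 4668 CPM. Hspa1b had 2020, 1618, 1744 and 2875 CPM in turn. With each cell's UMIs of a gene capped at 5, Dnaja1 was at 0.19, and the lowest median of the list over all alternatives was 0.05. Of 22 immediate early genes 14 lay above 0, against 41.9% of all compared genes. At least 1.5-fold higher were 2, Fosl2 and Egr2 (57.2 against 38.0 CPM), and none was lower. Of all compared genes 1.81% were higher and 3.84% lower by this mark. Fos had 547 and 532 CPM, Egr1 93.8 and 86.8, Dusp1 378 and 399, and Jun 742 and 869. These sums cover classes of Nr4a2-high cells that differed. With 3, 4 and 5 or more Nr4a2 UMIs, Fos had 499, 485 and 626 CPM and Egr1 60.1, 70.4 and 137. Dusp1 had 312, 356 and 449 CPM in turn, and Jun 712, 553 and 884. The part of dissociation in the differences was not tested.

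**Figure D3:**
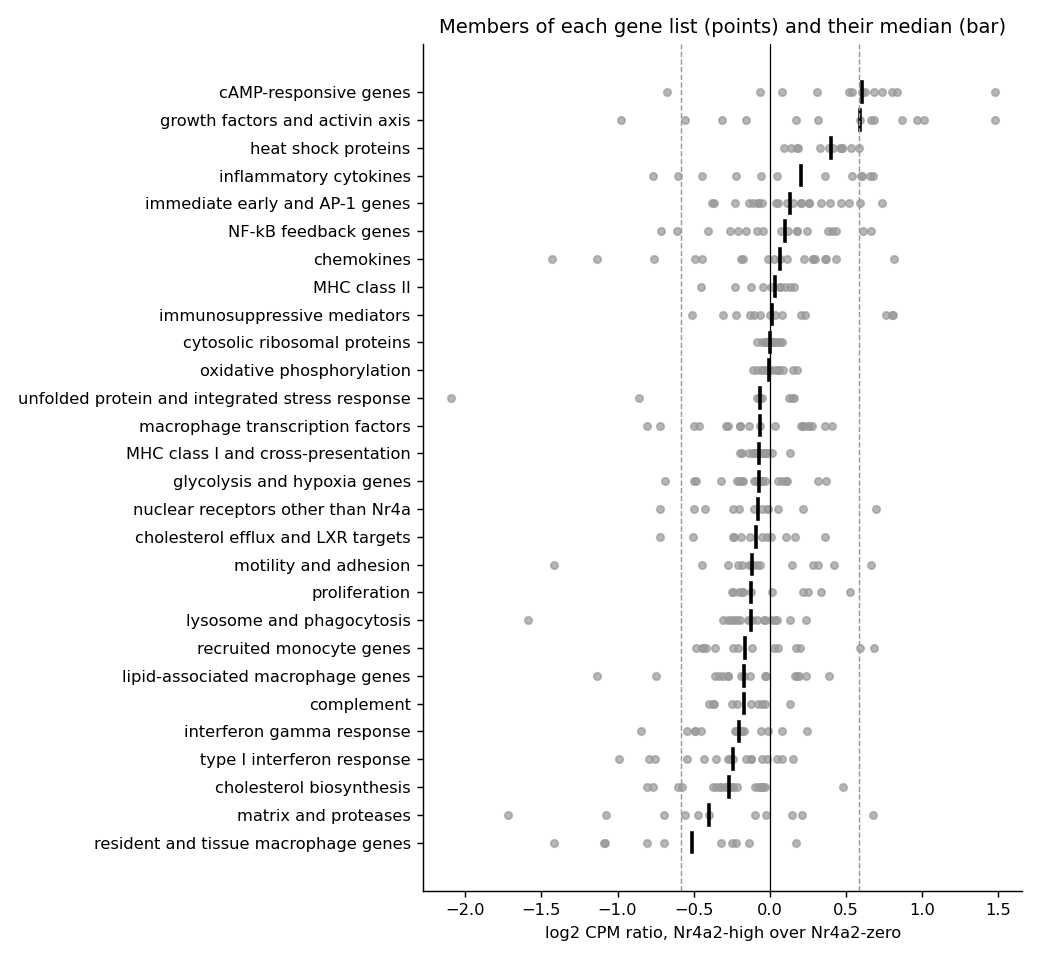
Log2 CPM ratio (horizontal axis) of the compared members of each gene list with at least 9 compared members, as grey points, with the list's median as a black bar. Dashed lines mark 1.5-fold either way; cyclic AMP-responsive genes (0.60) and growth factors (0.59) have the highest medians and resident macrophage genes (-0.51) the lowest.

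On the lower side, several genes of resident macrophages and microglia were lower. Of 10 compared resident macrophage genes 5 were at least 1.5-fold lower and none higher, against 3.84% and 1.81% of all compared genes. The median was -0.51 (-0.58 to -0.11 over the alternatives). Cx3cr1, the fractalkine receptor, had 38.9 CPM (34.4 to 43.9) against 104 CPM (99.0 to 109), and was seen in 14.4% and 19.1% of cells, while the free RNA of the library held it at 367 CPM, above either side. Vcam1, an adhesion molecule, had 64.8 against 138 CPM (-1.08; -1.24 to -0.94), Hes1, a Notch target, 16.9 against 36.2 CPM (-1.09), the transcription factor Maf 75.3 against 132 CPM (-0.80), and the collagenase Mmp13 106 against 172 CPM (-0.69). Of the 7 compared microglia markers 4 were at least 1.5-fold lower and none higher, against 3.84% and 1.81% of all compared genes. The median was -0.67 (-0.77 to 0.17 over the alternatives). The 4 were Crybb1, Sparc, Gpr34 and P2ry12, and P2ry12 had 9.66 against 15.4 CPM. The others, Fcrls, Olfml3 and Tmem119, lay within 1.5-fold. With 0, 3 and 5 or more Nr4a2 UMIs, Fcrls had 13.2, 7.24 and 18.0 CPM and Olfml3 9.20, 8.09 and 10.7 CPM. Sall1, a defining microglial factor, had 0 CPM in Nr4a2-high and 0.713 CPM in Nr4a2-zero cells, and Tmem119 had 15.3 and 19.1 CPM. Recruited monocyte genes were not higher as a list. Of 14 compared, 8 lay below 0, against 58.1% of all compared genes. Thbs1 and Fn1 were at least 1.5-fold higher and none was lower. The median of that list was -0.165 (-0.21 to 0.16 over the alternatives).

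Some of these genes lay in few cells, but not all: a Vcam1 UMI was held by 16.3% of Nr4a2-high and 25.7% of Nr4a2-zero cells. Cells with at least 2 Cx3cr1 UMIs were 35 of 564 Nr4a2-high cells (6.21%) and 162 of 1339 Nr4a2-zero cells (12.1%). Without them the ratio of Cx3cr1 itself was 0.08, of Crybb1 0.67 and of Sparc 0.17, so the lower levels of Crybb1 and Sparc lay in those cells; for Cx3cr1 this follows from the removal. Other lower genes stayed lower without them, by less: Lag3, an inhibitory receptor that microglia also transcribe, had 6 UMIs in Nr4a2-high and 146 in Nr4a2-zero cells (-3.30; -4.88 to -2.25) and -2.21 without the Cx3cr1 cells. Gdf15, a stress-induced cytokine, had 3.27 against 14.3 CPM (-2.10) and -1.14 without them, and Pmp22 3.12 against 14.9 CPM (-2.23) and -0.97 without them. All 15 genes on the higher side stayed at least 1.5-fold higher when these cells were left out.

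Further lower genes had varied roles. Blnk, an adaptor of B cell receptor signalling also found in macrophages, had 2.23 against 9.01 CPM (-1.97; -2.89 to -1.24), and the immunoglobulin gene Ighm 4.46 against 11.4 CPM, while the B cell gene Cd79a had 0 and 0.648 CPM. Spic, the factor of haem-recycling macrophages, had 13 against 112 UMIs (-1.86; -2.86 to -1.08), with 61.5% of the Nr4a2-high UMIs in 1 cell. Gas6, a ligand of the phagocytic receptors Mertk and Axl, had 2.97 against 9.14 CPM (-1.59), while Mertk stood at 43.8 and 42.5 CPM and Axl at 136 and 139 CPM. Gbp2b, an interferon-induced GTPase, had 12.8 against 37.7 CPM (-1.55; -1.90 to -1.23). Of 17 type I interferon genes 14 lay below 0, against 58.1% of all compared genes. At least 1.5-fold lower were 3, Cmpk2 (-0.99), Ifit1 (-0.79) and Ifit2 (-0.75), against 3.84% of all compared genes. Of 14 interferon gamma genes Gbp5 alone passed the fold (38.6 against 69.6 CPM, -0.85), and Cxcl9 had 835 and 950 CPM.

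Of 21 compared genes of cholesterol synthesis 3 were at least 1.5-fold lower and none higher, against 3.84% and 1.81% of all compared genes. The median was -0.27, and 20 lay below 0 (58.1% of all compared genes lay below 0). The 3 were Nsdhl (-0.81), Dhcr7 (-0.77) and Mvk (-0.61), and the others lay within 1.5-fold. Sqle, squalene epoxidase, had 13.4 CPM (10.8 to 16.4) and 16.5 CPM (14.5 to 18.6), a ratio of -0.29 (-0.66 to 0.05) within counting error. Pmvk, the exception, had 295 and 212 CPM. Of 17 lipid-associated macrophage genes, lipoprotein lipase (Lpl, 11.3 against 24.9 CPM) and Fabp4 (7.58 against 12.8 CPM) were lower, and Trem2, Apoe and Spp1 were within 1.5-fold. None of 10 complement genes passed the fold. C1qa had 1653 and 2127 CPM. Of 22 glycolysis and hypoxia genes only Egln3 passed it (10.5 against 17.1 CPM). Slc2a1 (126 and 101 CPM), Ldha (518 and 529 CPM) and Hilpda (168 and 158 CPM) lay within 1.5-fold. Vegfa, higher as given above, is also a known hypoxia target, and the part of hypoxia was not tested. Of the stress response genes Ddit4 was lower along with Gdf15, at 23.5 against 42.6 CPM.

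The 4 lowest ranked genes, BC100530, Ngp, Stfa1 and Stfa2, are genes of granulocyte precursors, and 1 Nr4a2-zero cell held 86.5%, 92.0%, 60.6% and 62.6% of their UMIs on that side. The Nr4a2-high side had 1 UMI of BC100530, Stfa1 and Stfa2 each and 3 UMIs of Ngp. The stefin genes Stfa1, Stfa2 and Stfa2l1 and BC100530 are near copies of each other, so reads can be split between them. Ratios for these genes describe a handful of cells: 3 Nr4a2-high and 24 Nr4a2-zero cells held at least 5 UMIs of this gene group. Of the neutrophil markers Mmp9 was also lower, at 10.1 against 21.4 CPM, with 39.7% of its Nr4a2-high UMIs in 1 cell, and S100a8 stood at 222 and 241 CPM.

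Cells with 1 or 2 Nr4a2 UMIs took no part in choosing the genes, but the Nr4a2-zero cells they are set against did, so the counts here are a description. In them, each of the 15 higher genes stood above its level in Nr4a2-zero cells, with 1 UMI and with 2, and 13 of the 15 lower genes stood below it in each class. Of all compared genes 44.2% stood above the Nr4a2-zero level with 1 UMI and 45% with 2. For 14 of the 15 higher genes the level was higher at each step from 0 to 1 to 2 UMIs, Inhba being the exception, and 10 of the 15 lower genes were lower at each of these steps. Over all 6 classes only Il1rn of the higher genes went up at every step, and none of the lower genes went down at every step. Nr4a3 had 55.3 CPM with 0 UMIs, 96.5 with 1, 121 with 2, 132 with 3, 125 with 4 and 160 with 5 or more. Gpd2 went from 74.98 to 107 and 131 CPM and levelled at 135, 143 and 142 CPM. Vegfa reached 303 CPM with 1 UMI, peaked at 423 with 4 and had 355 with 5 or more. Inhba had 225, 295, 280, 339, 374 and 568 CPM, so its highest level lay in the 229 cells with 5 or more UMIs. Nr4a1 was level at 112, 112 and 110 CPM with 0 to 2 UMIs, at 128 and 126 with 3 and 4, and 190 with 5 or more. The lower gene Cx3cr1 had 104, 49.5, 34.3 and 14.9 CPM with 0 to 3 UMIs and 65.6 and 43.4 CPM above that. Median depth in these classes lay between 11237 and 11948 UMIs.

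**Figure D4:**
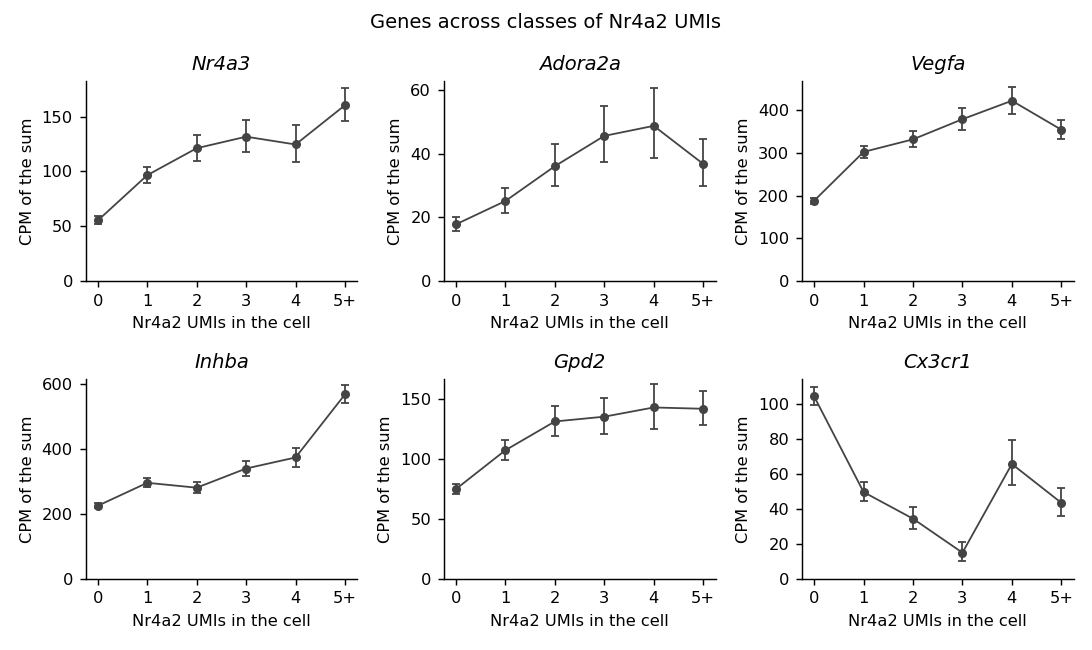
CPM of summed UMIs (vertical axis, from 0) of 6 genes in macrophages grouped by Nr4a2 UMIs (horizontal axis), with exact 95% Poisson intervals. Nr4a3 goes from 55.3 to 121 CPM between 0 and 2 UMIs, Inhba is highest at 568 CPM in cells with 5 or more, and Cx3cr1 goes from 104 CPM to 14.9 CPM at 3 UMIs.

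Macrophage states held Nr4a2-high cells in different shares, so each comparison was repeated within strata. Nr4a2-high cells made up 26.8% of cells with an Inhba UMI (24.2 to 29.5%) and 16.4% of those without (14.7 to 18.3%). They made up 14.96% of cells with a Vcam1 UMI (12.2 to 18.0%) and 22.1% of those without (20.4 to 24.0%). For Cxcl9, a chemokine gene of the interferon state, the shares were 19.0% with and 23.1% without a UMI, and for Arg1 22.5% and 19.1%. Within all 8 strata every leading higher gene with at least 20 UMIs, its own split left out, had a ratio above 0. Of the leading lower genes chosen likewise, 13 of 14 lay below 0 in cells without a Cxcl9 UMI. In cells with a Vcam1 UMI 9 of 10 did, and in the other strata all did. Nr4a3 ranged from 0.95 to 1.52 over the strata, Vegfa from 0.67 to 1.10, Gpd2 from 0.64 upwards and Crem from 0.46 to 0.98. Among cells with an Inhba UMI 6 of 14 such genes passed 1.5-fold, and among cells without 14 of 14. The strata are parts of the cells that chose these genes. The share of all genes within each stratum is not given, so the counts are a description. Where both sides were weighted to the same mixture of the 4 state genes, 88 genes were at least 1.5-fold higher rather than 153, and 10 of the 15 leading genes still passed. Inhba and Vcam1, themselves weighting genes, had 0.19 and -0.41 there, and Fn1 had 0.29.

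Macrophages outside the depth window, which the rule did not use, were compared in the same way. The share of all genes past 1.5-fold in these windows is not given, so the counts below are a description. In the main comparison 3.48% of genes were at least 1.5-fold higher when the minimum was 20 UMIs. Of 1224 macrophages with at least 4000 and under 8000 UMIs, 110 were Nr4a2-high and 799 Nr4a2-zero, and 13 of the 15 higher genes lay above 0 and 7 passed 1.5-fold. Nr4a3 stood at 1.17 (0.79 to 1.52), Adora2a at 1.17 (0.61 to 1.67), Vegfa at 1.05 (0.84 to 1.24), Nrg1 at 1.18 and Gpd2 at 0.87. Areg (-0.26; -1.72 to 0.78) and Olr1 (-0.08; -0.94 to 0.62) lay below 0 within wide intervals, and Inhba had 0.27 (0.07 to 0.45). Of 1919 macrophages with over 16000 and up to 30000 UMIs, 464 were Nr4a2-high and 803 Nr4a2-zero, and all 15 lay above 0 with 14 past 1.5-fold. Nr4a3 had 1.13 (0.995 to 1.26), Inhba 1.36 (1.26 to 1.46) and Nr4a1 0.89 (0.76 to 1.01). Of the 12 lower genes with at least 20 UMIs in each window, 11 lay below 0 in the shallow and 9 in the deep window. Cx3cr1 kept ratios of -1.80 and -1.60, whereas Pmp22 had -0.02 and Sparc 0.40 in deep cells. Nr4a2-high cells made up 8.99% of the shallow, 20.5% of the middle and 24.2% of the deep window, and the part of depth in these shares was not tested.

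**Figure D5:**
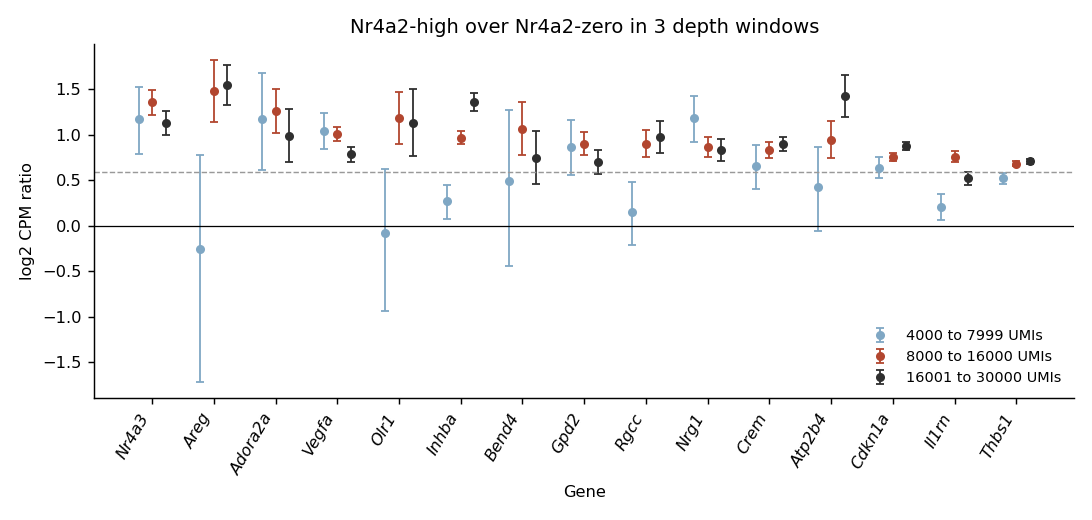
Log2 CPM ratio (vertical axis) of the 15 leading higher genes (horizontal axis) in glioma macrophages of 3 depth windows, with exact 95% intervals of counting error. The dashed line marks 1.5-fold; all points lie above 0 except Areg (-0.26) and Olr1 (-0.08) in the shallowest window.

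Splits by Nr4a2 were also made in other cells. The share of all genes past 1.5-fold there is not given, so the counts of genes are a description. The control library held 56 Nr4a2-high and 3763 Nr4a2-zero cells by the same rule, and the 13 higher genes with at least 20 UMIs there were all past 1.5-fold, Nr4a3 at 141 against 19.0 CPM and Gpd2 at 83.2 against 7.29 CPM. The sides differed in cell makeup: the microglial P2ry12 had 552 against 2010 CPM, the border macrophage genes Mrc1 and Lyve1 508 against 46.4 and 162 against 6.40 CPM, and the endothelial Cldn5 292 against 7.63 CPM. Nr4a2 and cell makeup cannot be told apart in these control cells. Inhba and Nrg1 had 1 UMI on each side there. Median depth of the control cells was 11161 UMIs in Nr4a2-high and 9538 UMIs in Nr4a2-zero cells. Glioma T cells, like the 276 above, held at least 3 UMIs in all of Cd3d, Cd3e and Cd3g and none of Csf1r, Fcgr1, Adgre1 or Cd14. For this split their window was 4000 to 16000 UMIs, the Nr4a2 threshold was lower, and no cell cycle limit was set. In 84 glioma T cells with at least 2 Nr4a2 UMIs against 477 with none, 9 of 13 genes with at least 20 UMIs lay above 0 and 4 passed 1.5-fold: Areg (450 against 156 CPM, 1.52), Gpd2 (1.42; 0.77 to 2.02), Inhba (1.31; 0.10 to 2.37) and Nr4a3 (1.29; 0.998 to 1.56). The lower genes did not go the same way in T cells: of 3 with at least 20 UMIs none lay below 0, Cx3cr1 being at 2.14 (1.42 to 2.85) and Lag3 at 0.66 (0.41 to 0.90). In the control library 7 of 10 such lower genes lay below 0, and Ccl8 had 2.02. Nr4a1 had 1.46 (1.09 to 1.82) in T cells, while Crem had 0.27, Vegfa 0.36 and Adora2a 0.37. Median depth of these T cells was 8384 and 7048 UMIs. The T cell sides differed in makeup too: Gzma had 56.4 against 528 CPM, Cd8a 92.2 against 163 CPM and Ccr7 491 against 229 CPM. Nr4a2 and cell makeup cannot be told apart in these T cells either. Inhba rested on 11 and 23 UMIs there.

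Gpd2 is also the nearest annotated neighbour of Nr4a2. Nr4a2 lies at chr2:57106830-57124003 on the minus strand (GRCm38) and Gpd2 at chr2:57237635-57370719 on the plus strand, 114 kb away, with its own start at the end facing Nr4a2. Of 17 genes within 2 Mb of Nr4a2, only 2 had the UMIs to be compared, Gpd2 and Cytip. Cytip, a regulator of cytohesins and leukocyte adhesion 1005 kb away, was also past 1.5-fold, with 3256 and 4840 UMIs and a ratio of 0.63. Of the others, Acvr1, which encodes an activin and BMP receptor, had 27 and 58 UMIs.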

How the data were processed

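The authors deposited raw counts, 1 matrix of UMI counts per gene and barcode for each group, with 31053 genes and 6794880 barcodes and no filter for cells. Tools listed per the submitters' processing notes were Seurat 3, STAR and Cell Ranger 3.0.2, with the builds mm10 and GRCh38; all gene identifiers were of mouse. Per the labels' protocols, libraries were made with droplet 3′ kits of either of 2 chemistry versions. All barcodes together carried 159689787 UMIs in glioma and 124023146 in control. Whether the counting used strand is not given in the sources used here.

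Cells were chosen by the limits given above from the barcodes of each matrix. UMIs were summed per side, 6729637 without Nr4a2 in Nr4a2-high and 15430679 in Nr4a2-zero cells, and 0.5 UMIs were added to each sum for log2 ratios. Genes with at least 100 UMIs over both sums were compared, and 1.5-fold was taken as the mark of size. Intervals are exact at 95% (conditional binomial for ratios, Poisson for CPM, Clopper-Pearson for shares) and were checked on simulated sums. Named genes were the 15 per direction with the interval bound farthest from 0, without the genes of the cell rule, mitochondrial and predicted genes, then Nr4a1, Nr4a3 and Sqle. To these came up to 4 members per gene list past 1.5-fold, or the 2 with most UMIs. The cells, the gene lists (30 of pathways, 14 of cell types) and the alternatives were chosen with earlier results of these data known. Coordinates are from GENCODE M21 (GRCm38, the same coordinates as mm10) and promoters from RefSeq (GRCm38.p6). Python 3.11.15, numpy 2.4.6, scipy 1.17.1 and pandas 2.3.3 were used. Alternatives changed depth window, Nr4a2 threshold, mitochondrial and macrophage limits, weighting, thinning, minimum UMIs and centring.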

Additional observations from a re-analysis of the deposited data

How the results depend on the processing

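Each ratio was recomputed under 19 alternatives, of which 4 were chosen after seeing the data: UMIs per cell and gene capped at 5, and cells left out with granulocyte precursor genes, with Cx3cr1 or with dendritic genes. Of 75 named genes past 1.5-fold, 26 stayed past it under all 19, among them Nr4a3, Adora2a, Vegfa, Olr1, Bend4, Gpd2, Nrg1 and Crem of the 15 higher and Lag3, Pmp22, Gdf15, Blnk, Gbp2b, Ccl8 and Spic of the 15 lower genes. A minimum of 20, 1 or 500 UMIs alters which genes are counted and not the ratio of a gene. No named gene could fall short under those alternatives. The counts of higher and lower genes stayed within 1.5 times of 153 and 324, except with a minimum of 20 UMIs (372 and 844), of 1 UMI (1633 and 2068) or of 500 UMIs (72 and 60), and for higher genes with states weighted alike (88). Among the named genes past 1.5-fold, the ratio changed sign in 15 cases; some named genes near 0, such as C1qb, Cd74 and H2-D1, also crossed it. In cells of 10000 to 14000 UMIs, Il10 had -0.74 and Plet1 -0.25. With at least 8 UMIs of macrophage genes, Ccl22 had -0.38. With cells of other types left out, BC100530 and Stfa2l1 had 0.44 and Stfa1 and Stfa2 1.18. Without cells of granulocyte precursor genes, Ngp had 1.67, Stfa1 0.44, Stfa2 1.18 and Stfa2l1 0.57, where few UMIs were left. Without Cx3cr1 cells, Crybb1 had 0.67, Cx3cr1 0.075 and Sparc 0.17, and without dendritic genes Ccr7 had -0.40. The cap of 5 UMIs compresses abundant genes by construction, with Il1b at 0.12 and Thbs1 at 0.29. For the other changes the cause was not tested.

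No paired analysis was possible because the barcodes carry no sample. Intervals cover counting error only, and differences between the 4 mice pooled in the library are unknown. Depth limits genes under 100 UMIs over both sides, which were not compared. An Nr4a2 count of 0 in a cell cannot tell absence of the transcript from a transcript missed in counting.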
